A study of Mus musculus with 6 samples.

Results

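The genes described here carry the cytosolic DNA sensing pathway: Cgas, Sting1, Tbk1, Ikbke and Trex1. They were chosen by name and found by Entrez gene ID, where Cgas was formerly Mb21d1 and Sting1 was Tmem173, and they are 5 of 36528 gene IDs in the tables. RNA sequencing was done on 6 libraries of HOXB-8 cells, mouse bone marrow progenitors of the myeloid lineage held in division by the homeobox factor Hoxb8, which the extraction notes also name iMACs. In the 3 Parental libraries Irf2 is wild type and the guide RNA was the control Luc. In the 3 IRF2_KO libraries the cells are knockouts made with Irf2 gRNA2, a guide against the gene for interferon regulatory factor 2. The labels name no further treatment and no stimulation with DNA. The extraction notes speak of knockout lines with an n of 3 and do not say whether the libraries are separate clones, pools or cultures, so every p-value measures the spread between libraries, which may be technical.

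As background, cGAS binds DNA that has reached the cytosol and makes the cyclic dinucleotide cGAMP. cGAMP binds STING on the endoplasmic reticulum, STING moves towards the Golgi and recruits TBK1 and its relative IKK-epsilon, the product of Ikbke, and these kinases phosphorylate the transcription factor IRF3, which switches on interferon-beta. TREX1 is an exonuclease that digests cytosolic DNA and so keeps cGAS quiet. Myeloid cells are among the cells in which the pathway is best known, and several of its genes are themselves interferon-inducible in many cell types. IRF2 binds promoter elements shared with other members of its family and can act as a repressor or an activator.

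The total count per library was 33422590 to 39925038 in Parental and 29070160 to 34051219 in IRF2_KO. Irf2 stood at 41.5 ± 0.787 CPM in Parental and 39.1 ± 1.89 CPM in IRF2_KO (SD, n = 3), a difference that was not called (edgeR adjusted p = 0.209). The ranges, 41.1 to 42.4 CPM in Parental and 37.0 to 40.3 CPM in IRF2_KO, did not overlap, which held for 54.0% of tested genes. A guide can disrupt a coding sequence and leave the transcript, so this level does not check the labels. CPM is a gene's share of the library's counts on the usual scale, after TMM adjustment. Summed CPM of 7 myeloid markers was 1047 to 1070 in Parental and 1617 to 1654 in IRF2_KO. The 4 natural killer cell markers had no read, and the 5 matched T cell markers summed to at most 0.101 CPM. B cell markers summed to at most 0.803 CPM.

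To show what lies before the starts of members that rose and of one that did not pass the test, the RefSeq promoter windows of Cgas, Ikbke and Tbk1 (GRCm38.p6, all on the minus strand) are printed 5′ to 3′. No window of Sting1 was analysed here. Capitals mark each GAAA, the letters that sites for interferon regulatory factors repeat, or its reverse complement TTTC. The windows are chr9:78443238-78443487 for Cgas, chr1:131279607-131279813 for Ikbke, where the 43 bases nearest the start are left out because GENCODE M21 places an exon there, and chr10:121586795-121587044 for Tbk1.
Cgas: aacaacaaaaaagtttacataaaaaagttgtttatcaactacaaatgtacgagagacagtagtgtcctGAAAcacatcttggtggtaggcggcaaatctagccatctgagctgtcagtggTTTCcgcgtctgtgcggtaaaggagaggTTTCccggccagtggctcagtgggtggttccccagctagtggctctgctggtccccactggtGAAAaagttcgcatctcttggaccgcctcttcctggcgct
Ikbke: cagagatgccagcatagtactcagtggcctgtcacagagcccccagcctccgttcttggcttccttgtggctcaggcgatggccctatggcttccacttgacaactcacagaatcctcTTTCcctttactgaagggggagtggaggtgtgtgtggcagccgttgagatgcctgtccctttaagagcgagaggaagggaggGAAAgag
Tbk1: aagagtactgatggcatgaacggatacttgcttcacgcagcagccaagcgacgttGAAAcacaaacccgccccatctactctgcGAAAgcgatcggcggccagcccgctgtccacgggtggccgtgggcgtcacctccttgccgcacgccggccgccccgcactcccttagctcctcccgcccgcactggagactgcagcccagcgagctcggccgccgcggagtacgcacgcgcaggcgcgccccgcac
In the full 250 bases before the start, Cgas had 4 matches to GAAA on either strand, Ikbke 4 (2 of them in the bases printed) and Tbk1 2. The median over 32851 RefSeq promoters of that length was 2, with 0 to 6 as the 5th to 95th percentile, and 86.4% held at least 1, so each of these counts lay within the usual range. The repeated form GAAANNGAA, from the core of the interferon-stimulated response element, was in none of these windows and in neither of the windows of Trex1, and it was in 7.13% of all promoters. TTCNNNGAA, the STAT dimer site, and GGGANTTTC, from the NF-kB site, were also not matched in them (7.02% and 0.941% of all promoters). Each match to GAAANNGAA or GGGANTTTC also holds GAAA or TTTC. A match is a run of letters and not a bound site, and the lack of a match covers these letters in these windows alone.

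All 5 members were expressed and passed the filter on low counts. Cgas and Ikbke were higher in IRF2_KO and Sting1 was lower, while Tbk1 and Trex1 did not pass the test. The 3 called members stand beside a background of 47.2% of 13353 tested genes called at an adjusted p under 0.05 (edgeR quasi-likelihood F-test, Benjamini-Hochberg over all tested genes). In each direction it was 23.6%. The 3 called members are also the 3 whose CPM ranges did not overlap between groups, which held for 54.0% of tested genes, 26.4% with IRF2_KO above and 27.6% with IRF2_KO below. The median absolute log2 fold change was 0.18 over all tested genes and 0.32 over the called genes. By absolute log2 fold change Sting1 lay at the 88.2 percentile of all tested genes, Cgas at 72.0, Ikbke at 64.8, Tbk1 at 13.5 and Trex1 at 2.62.

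**Figure D1:**
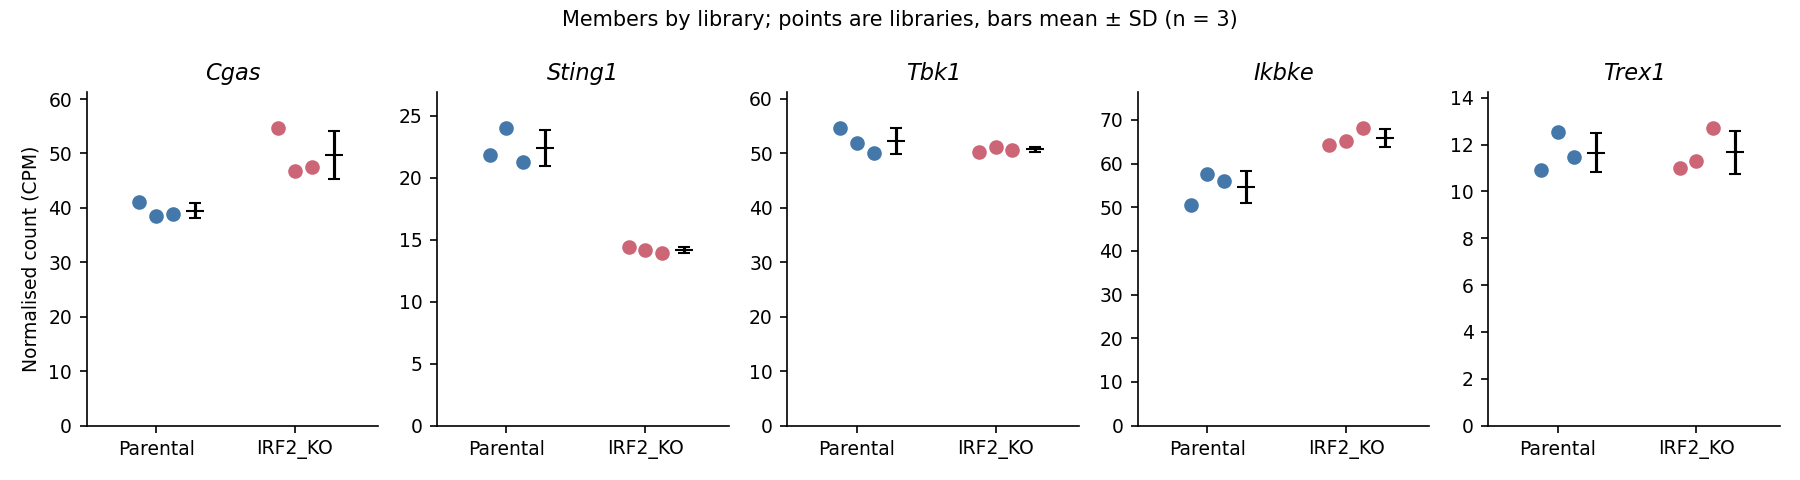
Normalised count in CPM of each member in each library, on axes that start at 0; points are libraries, and the bar beside each group is its mean ± SD over 3 libraries. The groups are apart for Cgas, Sting1 and Ikbke and overlap for Tbk1 and Trex1.

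Cgas (Entrez gene 214763, chromosome 9, 78430518 to 78443237, minus strand) encodes the DNA sensor itself, a nucleotidyltransferase of 507 amino acids by the GENCODE M21 model, which has 5 exons. The Parental libraries had 41.0, 38.5 and 38.9 CPM, the IRF2_KO libraries 54.7, 46.9 and 47.6 CPM. Each IRF2_KO library was above each Parental library, and IRF2_KO 1 was the highest. The mean went from 39.5 ± 1.37 to 49.7 ± 4.35 CPM (SD, n = 3), a log2 fold change of 0.33 (SE 0.06, edgeR adjusted p = 0.000225), or 1.26-fold with a 95% interval of 1.15 to 1.38. In bulk RNA a change in the number of expressing cells and a change in RNA per cell cannot be told apart. Markers of macrophages moved in the same libraries: 5 of 6 tested members of that list were higher and none lower, and the list of 8 summed to between 122.6 and 123.2 CPM in Parental and 183.2 and 187.4 CPM in IRF2_KO. Csf1r, the receptor for macrophage colony-stimulating factor, rose from 4.62 ± 0.0535 to 18.0 ± 0.959 CPM, Adgre1 from 78.4 ± 0.926 to 106.5 ± 2.01 CPM, Cd68 from 17.3 ± 0.771 to 28.4 ± 1.56 CPM and Mrc1 from 21.9 ± 0.661 to 29.8 ± 2.83 CPM. Siglec1, the remaining member that rose, had a log2 fold change of 4.69 from a low level and reached at most 1.96 CPM. Mertk was not called, C1qa was at 0 in all but 1 library, and Cd163 was at 0 in each IRF2_KO library. Of 9 neutrophil and promyelocyte markers, 3 were higher, 3 lower and 3 not called, and the list summed to between 11268 and 12270 CPM in Parental and 9344 and 10822 CPM in IRF2_KO. The elastase gene Elane went from 2989 ± 98.9 down to 924.1 ± 72.2 CPM, and Mpo and Camp fell by 0.52 and 0.92 on the log2 scale. Ltf, Ngp and Ctsg rose by 1.38, 0.92 and 0.13. Of 7 myeloid markers 5 were higher and 1 lower, Cebpa, which fell by 0.53. Of 4 plasmacytoid dendritic cell markers the 2 tested, Bst2 and Tcf4, were higher. The list summed to between 84.4 and 90.4 CPM in Parental and 216.3 and 239.2 CPM in IRF2_KO. Most of that sum was Bst2, at 58.3 ± 3.17 CPM in Parental and 187.6 ± 13.9 CPM in IRF2_KO. Tcf4 had 29.5 ± 2.52 and 41.1 ± 2.29 CPM in the same order. The defining marker Siglech was at 0 in every library, and Ccr9 had 2 reads in Parental and 1 in IRF2_KO. The part of these markers in the Cgas, Sting1 and Ikbke results was not tested.

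Sting1 (Entrez gene 72512, chromosome 18, 35733678 to 35740554), the membrane adaptor that binds cGAMP, was the member that fell. It had 21.8, 24.0 and 21.3 CPM in Parental against 14.4, 14.2 and 13.9 CPM in IRF2_KO. The IRF2_KO libraries lay close together, and the lowest Parental library was well above the highest of them. The mean went from 22.4 ± 1.45 to 14.2 ± 0.266 CPM (SD, n = 3), a log2 fold change of -0.66 (SE 0.07, edgeR adjusted p = 4.71e-07). Relative to Parental the IRF2_KO level was 0.634, with a 95% interval of 0.573 to 0.702.

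Tbk1 (Entrez gene 56480, chromosome 10, 121546455 to 121586794, minus strand) encodes the main kinase of IRF3 in this pathway, and also serves RNA sensing and Toll-like receptor signalling. Its level was 54.7, 51.9 and 50.03 CPM in Parental and 50.3, 51.2 and 50.6 CPM in IRF2_KO. The range of the IRF2_KO libraries fell inside that of Parental. The log2 fold change was -0.04 (SE 0.05, edgeR adjusted p = 0.516), and the 95% interval of the level relative to Parental ran from 0.902 to 1.04.

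Ikbke (Entrez gene 56489, chromosome 1, 131254600 to 131279601, minus strand) encodes IKK-epsilon, the kinase most like TBK1 and one that inflammatory signals induce in many cells. The GENCODE models give 717 amino acids for Ikbke and 729 for Tbk1, each from 20 coding exons. Ikbke stood at 50.6, 57.6 and 56.0 CPM in Parental and at 64.3, 65.3 and 68.2 CPM in IRF2_KO, with no overlap of the groups and Parental 1 the lowest library. The mean rose from 54.7 ± 3.64 to 65.9 ± 2.04 CPM (SD, n = 3), a log2 fold change of 0.27 (SE 0.05, edgeR adjusted p = 0.000486), or 1.21-fold with a 95% interval of 1.11 to 1.305. An antisense RNA gene, Gm28913, overlaps the Ikbke locus. It held 1.75 ± 0.118 CPM in Parental and 2.10 ± 0.215 CPM in IRF2_KO. Its log2 fold change of 0.25 (SE 0.16), at a low level, was not called (edgeR adjusted p = 0.218). Whether strand was used in counting is not given in the sources used here, so reads of such a pair cannot be told apart.

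Trex1 (Entrez gene 22040, chromosome 9, 109057932 to 109059723, minus strand) encodes the exonuclease that removes cytosolic DNA, in a single coding exon of 942 bases. It had the fewest reads of the members, 324 to 461 in a library. Its level was 10.9, 12.6 and 11.5 CPM in Parental and 11.0, 11.3 and 12.7 CPM in IRF2_KO, and the groups overlapped almost wholly. The log2 fold change was 0.01 (SE 0.08, edgeR adjusted p = 0.949), and its sign turned with library size alone as the scaling (-0.02). The 95% interval of the IRF2_KO level relative to Parental was 0.889 to 1.14, and changes inside that range are compatible with these data.

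**Figure D2:**
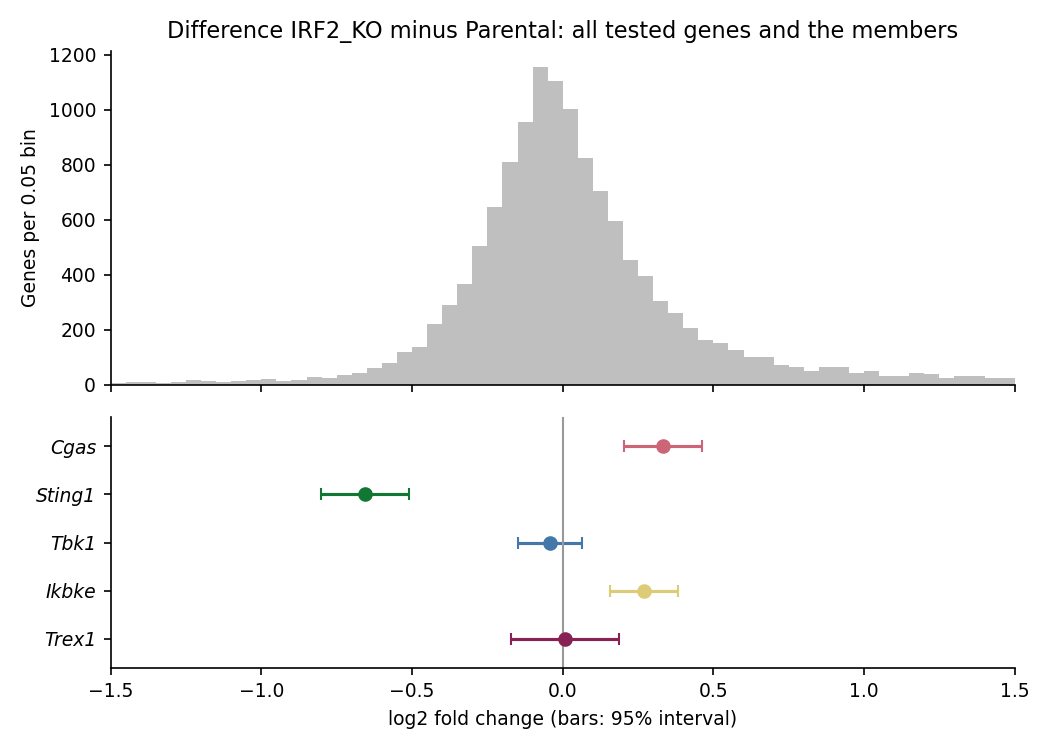
Upper panel: number of tested genes in each log2 fold change bin of 0.05, IRF2_KO against Parental, where 494 of 13353 genes lie beyond the limits of 1.5 in either direction and are not drawn. Lower panel: the estimate for each member with its 95% interval, which leaves out 0 for Cgas, Sting1 and Ikbke and holds 0 for Tbk1 and Trex1.

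Levels of different genes were compared on the deposited per-length scale, the size-factor-adjusted RPKM. In Parental, Tbk1 was the highest at 16.7 ± 0.782 RPKM, followed by Ikbke at 11.3 ± 0.728, Trex1 at 9.96 ± 0.693, Sting1 at 8.73 ± 0.561 and Cgas at 8.68 ± 0.321 RPKM (SD, n = 3). The step from Tbk1 to Ikbke exceeded the spread between libraries, while the ranges of each later pair of neighbours overlapped. That step depends on the length used for the RPKM, which for Ikbke was 1.56 relative to Tbk1. The GENCODE transcripts are 3251 bases for Ikbke and 3024 for Tbk1. Before division by length, mean CPM was 54.7 for Ikbke and 52.2 for Tbk1 in Parental. In IRF2_KO it was 65.9 and 50.7, so the order of Tbk1 and Ikbke depends on the lengths used. Within libraries, Ikbke was above Trex1 and Trex1 above Sting1 in 3 of 3 Parental libraries, and Sting1 above Cgas in 1 of 3. In IRF2_KO, Tbk1 stood at 16.3 ± 0.229 RPKM, Ikbke at 13.7 ± 0.441, Cgas at 11.0 ± 0.911, Trex1 at 10.03 ± 0.803 and Sting1 at 5.56 ± 0.0976 RPKM. Here the ranges of Cgas and Trex1 overlapped and those of the other neighbours did not. Sting1 was last in each IRF2_KO library, whereas Cgas and Sting1 shared the last place among the Parental libraries.

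**Figure D3:**
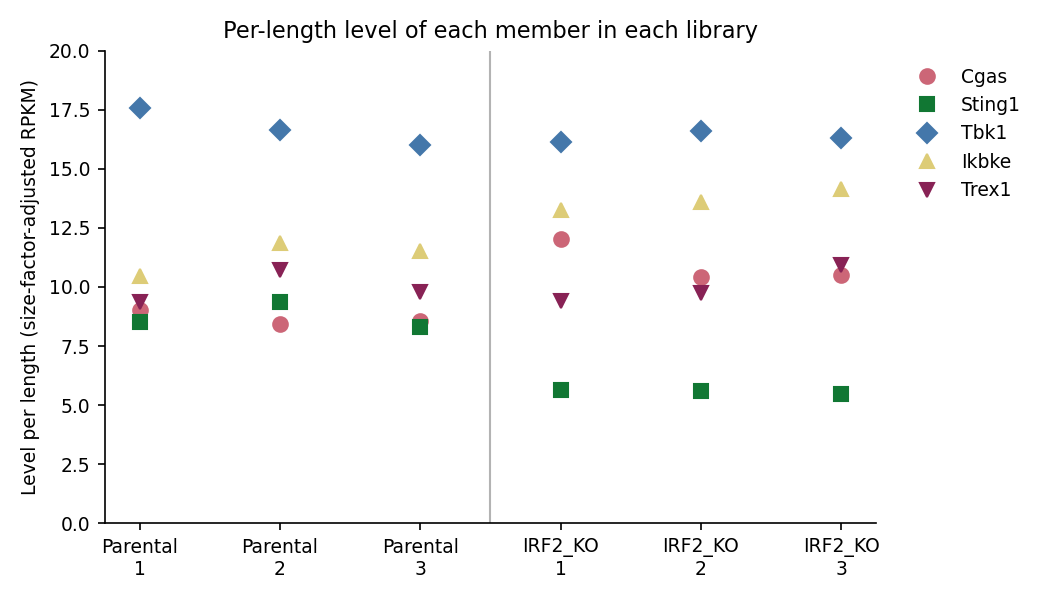
Level per length of each member in each library, in size-factor-adjusted RPKM on an axis from 0; each symbol is 1 gene in 1 library. Cgas and Sting1 lie together in Parental, with means of 8.68 and 8.73 RPKM, and apart in IRF2_KO, where Sting1 is between 5.45 and 5.63 RPKM.

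Ratios within a library compare members without the scaling between libraries. The RPKM of Sting1 relative to Cgas, adaptor against sensor, was 0.944, 1.11 and 0.972 in Parental and 0.468, 0.538 and 0.519 in IRF2_KO. The groups did not overlap, and the ratio was 1.98-fold lower in IRF2_KO (log2 difference -0.99, exact permutation test, two-sided, p = 0.1, n = 3 per group). The smallest p that 3 against 3 libraries allow in this test is 0.1. The ratio of the kinases, Ikbke to Tbk1, was 0.595, 0.713 and 0.719 in Parental and 0.822, 0.820 and 0.867 in IRF2_KO. It was 1.24-fold higher in IRF2_KO with no overlap (log2 difference 0.31, exact permutation test, two-sided, p = 0.1). The ratio of Trex1 to Cgas, the enzyme that removes DNA against the sensor, was 1.04, 1.27 and 1.15 in Parental and 0.781, 0.938 and 1.04 in IRF2_KO. These groups overlapped (log2 difference -0.33, exact permutation test, two-sided, p = 0.2). Adjusted over the 3 ratios with the Benjamini-Hochberg method, the p-values are 0.15, 0.15 and 0.2 in the order given.

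**Figure D4:**
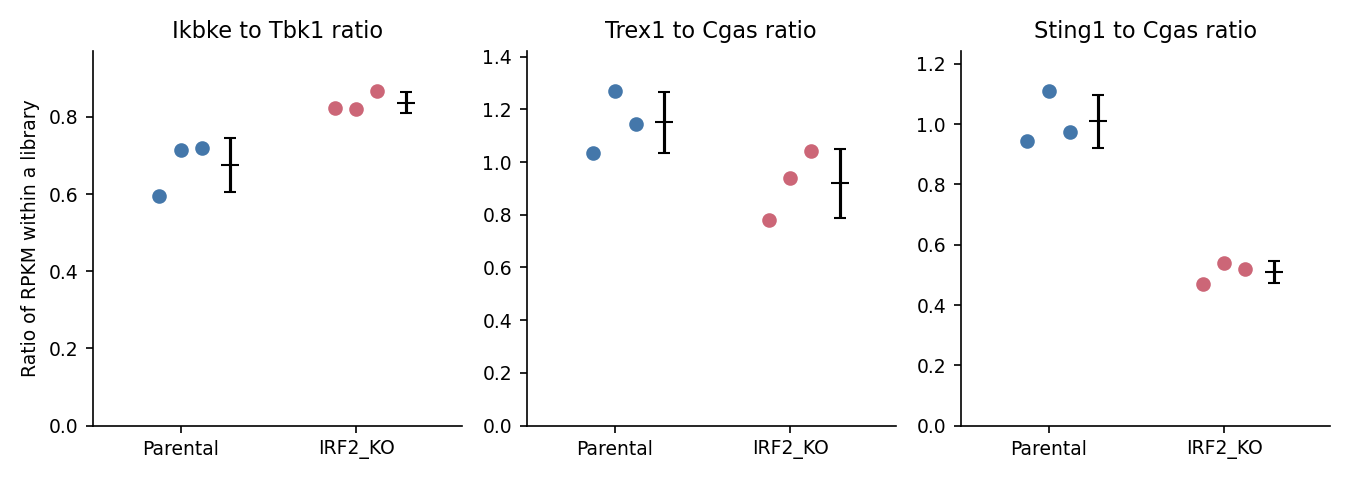
Ratio of the RPKM of 2 members within each library, on axes that start at 0; points are libraries and bars are mean ± SD over 3 libraries. Sting1 to Cgas goes from a mean of 1.01 in Parental to 0.508 in IRF2_KO, and Trex1 to Cgas overlaps between the groups.

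The loci of the members were read with their neighbours. Mto1, a mitochondrial tRNA modification gene, begins 241 bases from the Cgas start. It had 36.4 ± 1.296 CPM in Parental and 34.6 ± 2.19 CPM in IRF2_KO (edgeR adjusted p = 0.320). Xpot, a tRNA exporter 585 bases from the Tbk1 start, fell by 0.11 on the log2 scale (edgeR adjusted p = 0.0467). Rassf5 and Srgap2, on the sides of Ikbke, rose by 0.17 and 0.15 (SE 0.04 and 0.05; edgeR adjusted p = 0.00290 and 0.0219). Beside Sting1, 1700066B19Rik, which ends 2808 bases away, had 1.57 ± 0.337 CPM in Parental and 1.38 ± 0.279 CPM in IRF2_KO (edgeR adjusted p = 0.497). Ddx43, Gm35696 and the pseudogene Gm16490, the other neighbours, had no read.

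Trex1 lies between a gene that rose and a gene that fell. Shisa5, a p53-inducible membrane protein gene that ends 139 bases away, went from 86.9 ± 1.37 to 175.0 ± 8.04 CPM (log2 fold change 1.01, SE 0.05, edgeR adjusted p = 5.07e-12). Atrip, which encodes the partner of the DNA damage kinase ATR and ends 23 bases before Trex1 begins, went from 49.6 ± 2.07 to 40.9 ± 2.23 CPM (log2 fold change -0.28, SE 0.06, edgeR adjusted p = 0.000456). RefSeq also lists a transcript that reads from Atrip through Trex1, so the division of reads between them is uncertain.

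Other genes of the pathway were read from 7 lists, which hold 114 genes. Of 101 tested, 39 rose, 21 fell and 41 did not pass, so 59.4% were called beside the background of 47.2%. Their median log2 fold change was 0.05 and that of all tested genes -0.01. On the deposited RPKM with limma, 12 fell. By list, the share called was 44.4% for cGAS cofactors, 66.7% for STING traffic, 45.0% for kinase scaffolds and 40.0% for cGAMP transport. It was 69.2% for nucleic acid clearance, 64.7% for other DNA sensors and 81.8% for outputs and interferon receptor signalling. Over all tested genes 23.6% were called in each direction. The macrophage, neutrophil and promyelocyte, myeloid and plasmacytoid markers given above moved in the same libraries as these lists, and their part was not tested.

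Among cofactors and modifiers of cGAS, 2 of 9 tested genes rose, 2 fell and 5 did not pass (median log2 fold change -0.08). With library size alone as the scaling, 5 fell, and with limma on the deposited RPKM 1 fell. Trim56, a ubiquitin ligase that modifies cGAS, rose from 10.5 ± 0.283 to 23.3 ± 4.02 CPM (log2 fold change 1.15, SE 0.10), and Trim14 from 47.3 ± 1.42 to 85.6 ± 2.70 CPM. G3bp1, a stress granule protein that helps cGAS bind DNA, fell by 0.16 on the log2 scale (edgeR adjusted p = 0.00295). Ttll4, which adds glutamate chains, fell by 0.20, a call lost with limma on the deposited RPKM (adjusted p = 0.0678, against 8.52e-05 as the lowest of its alternatives). Zcchc3 and Ttll6 had no read in any library.

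Genes that move STING, restrain it or turn it over were all tested: 8 of 21 rose, 6 fell and 7 did not pass (median log2 fold change 0.04). Rhbdf2, the pseudoprotease iRhom2, which assists STING traffic, rose from 42.4 ± 4.08 to 54.7 ± 2.49 CPM. Ssr2, a translocon-associated protein, rose from 635.0 ± 12.5 to 798.5 ± 39.4 CPM. Insig1, a sterol-regulated protein of the endoplasmic reticulum, fell from 148.1 ± 3.38 to 105.0 ± 5.46 CPM, and Zdhhc1, a palmitoyltransferase-family protein, from 5.17 ± 0.352 to 2.74 ± 0.495 CPM. Insig1 is also a target of sterol signalling, so its place in the list is not its only known role. The number of falls was 3 without Parental 3 and also 3 with limma on the deposited RPKM.

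Of scaffolds of TBK1 and IKK-epsilon, adaptors that feed the same kinases, and their substrates, 7 of 20 rose, 2 fell (Traf2 and Ddx3x) and 11 did not pass (median log2 fold change 0.01). Tbkbp1, a TBK1-binding scaffold, rose from 76.8 ± 2.02 to 105.5 ± 1.49 CPM (log2 fold change 0.46, SE 0.04). Ikbkg, the regulatory subunit NEMO, rose by 0.25 and Stat6, a substrate of TBK1 at STING, by 0.38. Irf3, the substrate that turns on interferon-beta, stood at 60.6, 67.7 and 64.7 CPM in Parental and 58.7, 65.8 and 61.9 CPM in IRF2_KO, and the groups overlapped (log2 fold change -0.05, edgeR adjusted p = 0.483). Irf7, a related factor that interferon induces, went from 0.487 ± 0.0776 to 9.21 ± 1.39 CPM (log2 fold change 4.24, SE 0.18). The falls numbered 1 without IRF2_KO 3 and 1 with limma on the deposited RPKM.

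For transport and breakdown of cGAMP, 2 of 10 tested genes rose, 2 fell and 6 did not pass (median log2 fold change 0.03). Enpp1, the main cGAMP hydrolase, was low, with 1.49, 1.07 and 1.77 CPM in Parental and 1.48, 1.19 and 1.19 CPM in IRF2_KO (edgeR adjusted p = 0.514). Slc19a1, a folate carrier that imports cGAMP, fell from 143.1 ± 6.04 to 114.6 ± 4.09 CPM, and Slc46a1, another folate transporter, from 4.30 ± 0.322 to 3.06 ± 0.157 CPM. P2rx7, an ATP-gated channel, rose from 2.49 ± 0.187 to 8.73 ± 0.0834 CPM and Lrrc8b, a subunit of volume-regulated channels, from 23.8 ± 0.856 to 28.6 ± 2.55 CPM. Too low to test were Slc46a2, Lrrc8e, Gja1 and Enpp3, the last with 1 read, in IRF2_KO.

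Among enzymes that clear or edit nucleic acids, 6 of 13 tested genes rose, 3 fell (Rnaseh2c, Fen1 and Lsm11) and 4 did not pass (median log2 fold change -0.02). Samhd1, a nucleotide hydrolase, had 87.9, 84.95 and 85.1 CPM in Parental and 170.4, 164.5 and 167.8 CPM in IRF2_KO, a log2 fold change of 0.96 (SE 0.04, edgeR adjusted p = 3.57e-12). Adar, which edits RNA so that RNA sensors ignore it, rose from 63.0 ± 2.07 to 123.6 ± 2.05 CPM. The lysosomal exonuclease gene Pld3 rose from 101.1 ± 7.02 to 156.6 ± 12.5 CPM, and Dnase1l1 from 13.7 ± 0.200 to 21.0 ± 1.34 CPM. Mutations in human TREX1, SAMHD1 and ADAR cause the same interferon disease, Aicardi-Goutières syndrome. Here Samhd1 and Adar passed the test and Trex1 did not, and the difference between them was not tested.

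Of other proposed sensors of DNA, 6 of 17 tested genes rose, 5 fell (Ddx41, Dhx9, Xrcc6, Hnrnpa2b1 and Nono) and 6 did not pass (median log2 fold change 0.03). Zbp1, a sensor of left-handed nucleic acid, rose from 1.73 ± 0.319 to 57.8 ± 1.79 CPM and Ifi204, a DNA-binding protein linked to STING, from 0.156 ± 0.0806 to 4.62 ± 0.570 CPM. Ifi204 has close paralogs, and reads that align to several of them were not counted, so its level is uncertain. Lrrfip1 rose by 0.25 and the helicase gene Ddx41 fell by 0.26 on the log2 scale. There were 3 falls without Parental 2, with limma on the deposited RPKM, or at an adjusted p under 0.01.

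At the output of the pathway, Ifnb1 had no read in Parental and 3 reads over the IRF2_KO libraries, too few to test. A count of 3 corresponds to 0.0746 to 0.105 CPM in a library, counting error only. Ifna4, Ccl5 and Il6 were also too low to test. Of 11 tested genes of the outputs and of interferon receptor signalling, 8 rose, 1 fell (Ifnar1) and 2 did not pass (median log2 fold change 0.26). The fall of Ifnar1 was lost, leaving 0, without Parental 3, IRF2_KO 2 or IRF2_KO 3, with DESeq2, with limma on the deposited RPKM and at an adjusted p under 0.01. Irf9, a DNA-binding factor of interferon receptor signalling, rose from 7.42 ± 0.265 to 40.6 ± 0.785 CPM. The negative regulators rose too, Socs1 from 10.4 ± 0.0873 to 21.9 ± 0.268 CPM and Usp18 by 6.13 on the log2 scale (SE 0.10).

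**Figure D5:**
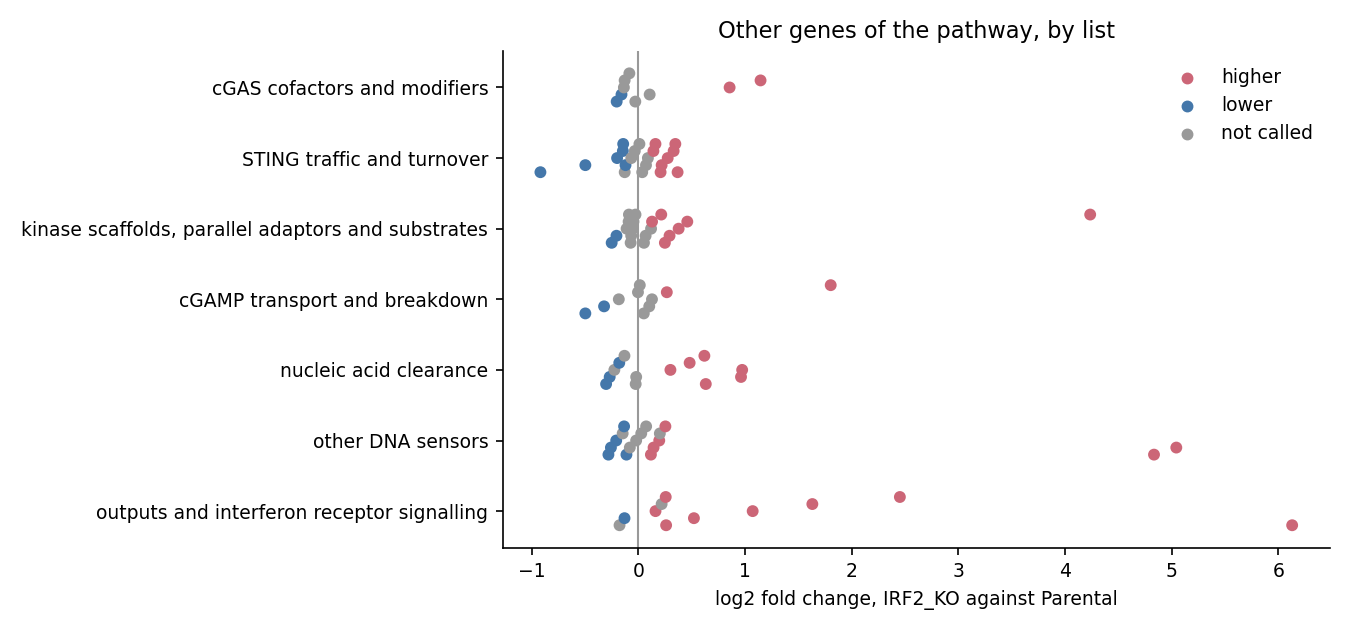
Log2 fold change of each tested gene of the 7 lists, IRF2_KO against Parental; each point is a gene, coloured as higher, lower or not called at an adjusted p under 0.05 in edgeR. Most points lie near 0, and 9 genes reach 2-fold, all of them higher.

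Genes with the most similar profile were found for each member by the root mean square difference of log2 CPM over the 6 libraries, each gene centred on its own mean, among 9784 genes. For Cgas these were Agps (0.017), Stk17b (0.020) and Zdhhc20 (0.021). Sting1 was nearest to P3h1 (0.035), Ksr1 (0.046) and Reps1 (0.055), whose log2 fold changes were -0.63, -0.65 and -0.66. Tbk1 was nearest to Aste1, Fam149b and Msh3 (each 0.015), and Ikbke to Arhgef2 (0.018), Sh3bp2 (0.022) and Marchf2 (0.026). Trex1 had Mast2 (0.033), Zfp629 (0.034) and Plec (0.038) as its nearest. With 6 libraries in 2 groups such profiles rest mostly on the difference between the groups and on which library is high, and they carry no test.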

How the data were processed

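Transcripts were measured in 3 Parental and 3 IRF2_KO libraries of HOXB-8 cells. Groups were taken from the group label, and replicates are numbered in the order of the records and pair nothing. The labels' protocols name a total RNA kit that keeps strand, and the molecule label says polyadenylated RNA. Per the submitters' processing notes, GSNAP was the aligner and GRCm38 the build; for versions, annotation and use of strand, the answer is not given in the sources used here. The deposited count of a gene is the number of its uniquely aligning reads, per the file headers, so genes with near-identical copies are lowered. The other deposited column is RPKM adjusted by the authors' size factors, per the file headers, and was used for levels between genes and ratios. Symbols came from a RefSeq table of the same build for 31049 of 36528 IDs. All 5 members and 114 list genes were matched.

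Counts were fitted in R 4.3.3 with edgeR 4.0.16 (filterByExpr, TMM, robust quasi-likelihood F-test, two-sided, Benjamini-Hochberg over 13353 genes, threshold 0.05). Standard errors are |log2 fold change| over the root of F, and intervals are 95%. The biological coefficient of variation was 0.0444. Mean chi-square per gene was 2.78 to 10.1 between libraries of a group and 63.7 to 73.4 between groups, against 1 for sampling noise. The fit was tested on simulated data.

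The members and lists were chosen with earlier results of these data known. In each list the 4 called genes with the smallest adjusted p are named, with Irf3, Ifnb1, Enpp1, Samhd1, genes with reads in 1 group alone, and genes beside the members; 1 gene that this rule names is not reported here. Genes named to fill a small count were taken after their values were seen. Profile neighbours have a mean of at least 5 CPM. Alternatives were RLE, upper-quartile and library size scaling, no filter, 1 CPM in 3 libraries, DESeq2 1.42.0, limma-voom (limma 3.58.1), limma on log2(RPKM + 0.1), an adjusted p under 0.01, and each library left out. For ratios they were a pseudocount of 0.1 and raw counts.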

Additional observations from a re-analysis of the deposited data

How the results depend on the processing

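No paired analysis was possible because the labels give no replicate numbers. The calls for Cgas, Sting1 and Ikbke and the absence of a call for Tbk1 and Trex1 held under each of the 15 alternatives. Over them the log2 fold change was 0.27 to 0.37 for Cgas (adjusted p 3.06e-07 to 0.0110), -0.69 to -0.61 for Sting1 (1.30e-17 to 0.000379), 0.22 to 0.31 for Ikbke (1.41e-05 to 0.0137) and -0.07 to -0.01 for Tbk1. The estimate for Trex1 lay on either side of 0: it was -0.0227 with library size alone, -0.00415 with no filter, and -0.0621 to 0.0608 with a library left out. The ratios kept their direction under 8 alternatives each. The log2 differences were -1.03 to -0.92 for Sting1 to Cgas and 0.22 to 0.36 for Ikbke to Tbk1. For Trex1 to Cgas they were -0.42 to -0.21. Among these alternatives raw counts could not differ from the main result, because RPKM is the count times a factor per gene and a factor per library. Over all genes, 2468 to 3229 were called higher and 2299 to 3731 lower. For the 7 lists together 33 to 40 genes rose and 12 to 29 fell, and the 12 came from limma on log2(RPKM + 0.1); the cause was not tested. Scaling by library size alone moved the median of all genes from -0.01 to -0.04. Depth limits Ifnb1, too low to test, and Trex1 had 324 to 461 reads in a library.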
